A study of Mus musculus with 130 samples.

Results

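Liver RNA profiles of the 20 mouse strains with the highest Slc4a1 transcript level were compared with those of the 20 strains with the lowest. The members were chosen by measured values, the Slc4a1 levels of these same libraries, and they are 40 of the 115 libraries of a strain panel, with 73 ranked strains between the groups. All were mice labelled male, of inbred or recombinant inbred strains that ate chow for 4 weeks and then a diet with 2% carbonyl iron (20000 ppm) for 6 weeks, so dietary iron loading is shared by both groups. Each strain was 1 mouse, RNA was taken from the large lobe, and age at the start is not given in the sources used here. The series holds 130 libraries, of which 15 belong to a separate diet experiment in C57BL/6J mice. Strains were ranked by the TPM (transcripts per 1000000) of Slc4a1, with ties ordered by Hba-a1, after 2 panel libraries were set aside. One was the second mouse of 129X1/SvJ. The other was labelled male BXD65/RwwJ, and its summed level of 4 Y-linked genes was 1.08 TPM against 32.7 to 115.8 TPM in the other panel libraries.

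Slc4a1 encodes band 3, the anion exchanger of the red cell membrane, and Hba-a1 encodes an alpha chain of adult haemoglobin. Erythroid cells accumulate globin mRNA while they condense and lose the nucleus, and the reticulocytes that enter the blood still carry some of it. The liver is an erythropoietic organ before birth, and in adult mice blood cell formation outside the marrow is seen mostly in the spleen and less often in the liver. Liver samples also hold circulating blood. In bulk RNA, more erythroid cells and more erythroid RNA per cell cannot be told apart.

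The 20 highest strains were BTBR T<+> tf/J, FVB/NJ, NZB/BlNJ, BXD42/TyJ, LG/J, BXD27/TyJ, BXH2/TyJ, BXD24/TyJ-Cep290<rd16>/J, SJL/J, NZW/LacJ, AXB19a/PgnJ, BXD74/RwwJ, BXD40/TyJ, BXD21/TyJ, BXD75/RwwJ, BXD55/RwwJ, I/LnJ, C57BL/6J, RIIIS/J and BXD50/RwwJ. The 20 lowest were BXD44/RwwJ, C58/J, BXD22/TyJ, BXA12/PgnJ, BXD34/TyJ, AXB12/PgnJ, BXD67/RwwJ, BXD16/TyJ, BXA26/PgnJ, BALB/cJ, BXD15/TyJ, CE/J, BXA2/PgnJ, BXH10/TyJ, BXH14/TyJ, BXD69/RwwJ, BALB/cByJ, BXD70/RwwJ, A/J and BXD87/RwwJ. Families were spread unevenly. The BXD strains, derived from C57BL/6J and DBA/2J, gave 9 strains to each group, the AXB/BXA strains 1 to the highest and 4 to the lowest, the BXH strains 1 and 2, and the other inbred strains 9 and 5. Total counts were alike, at 10.3 to 15.4 M (1000000 counts) in the highest group and 10.6 to 14.6 M in the lowest.

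Slc4a1 was all but absent from the low group: 13 strains had 0 counts and the other 7 had 1 count, which is 0.02 TPM at most. In the high group it ran from 3.81 TPM to 77.1 TPM with a median of 6.60 TPM. BTBR T<+> tf/J at 77.1 TPM, FVB/NJ at 51.99 TPM, NZB/BlNJ at 37.8 TPM and BXD42/TyJ at 33.4 TPM stood apart from the fifth strain, LG/J, at 15.8 TPM. At the edges, BXD50/RwwJ was the last strain inside the high group at 3.81 TPM and PL/J the first outside at 3.67 TPM. BXD87/RwwJ, the last strain inside the low group, and BXD13/TyJ, the first outside, both had 0.02 TPM from 1 count, while their Hba-a1 levels were 2.19 and 66.8 TPM.

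TPM and read counts did not rank the high strains alike. Over the 100 strains with any Slc4a1 count, 1 CPM (the count over the library total, times 1000000) corresponded to a median of 0.251 TPM, but in 19 strains it corresponded to between 0.521 and 4.29 TPM, and 6 of these 19 were in the high group. In 5 high strains the rank rests on this: RIIIS/J had 3.98 TPM from 12 counts, C57BL/6J 4.17 TPM from 13 counts, BXD75/RwwJ 4.63 TPM from 25 counts, AXB19a/PgnJ 5.87 TPM from 35 counts, and I/LnJ 4.27 TPM from 55 counts. The 15 other high strains had 118 to 2969 counts. A ranking by CPM replaced those 5 strains with PL/J, NON/ShiLtJ, BXD8/TyJ, LP/J and BXD60/RwwJ, and it kept 19 of the 20 low strains. Of 64 genes followed through the alternatives, all but Hamp were called between the groups. All 64 kept their direction and their side of the threshold in the CPM ranking. So did all 63 that could be tested without the 5 strains. Both alternatives reuse most of the same libraries and nearly all of these genes were already called, so this agreement was likely beforehand.

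**Figure D1:**
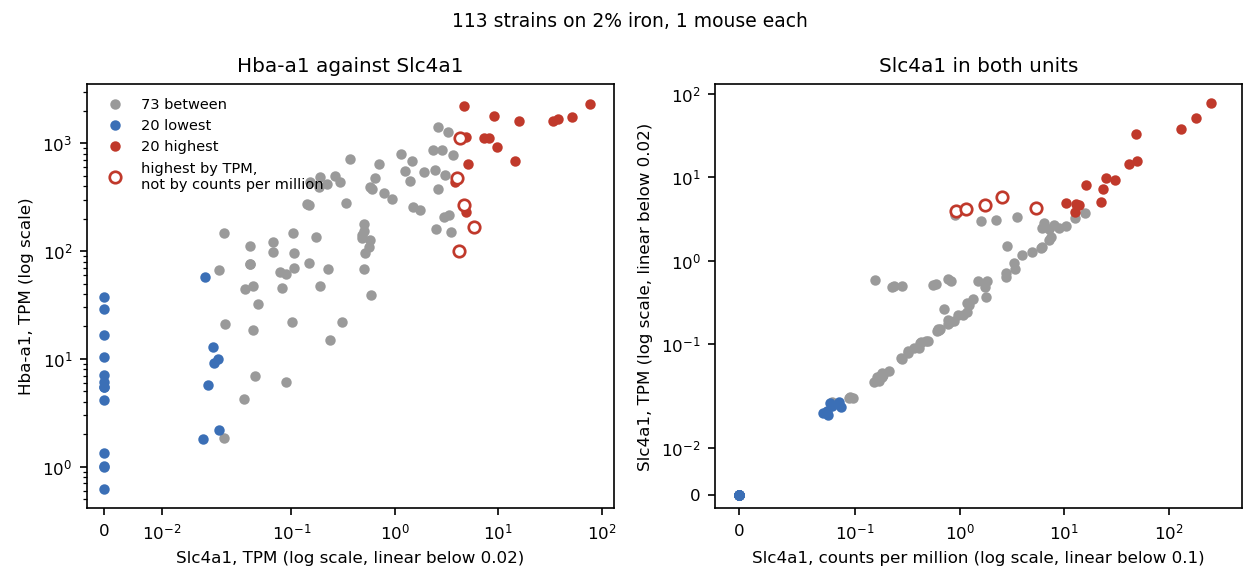
Each point is 1 strain on 2% iron; the left panel plots Hba-a1 against Slc4a1 in TPM and the right panel plots Slc4a1 TPM against Slc4a1 CPM, with the 20 lowest strains in blue, the 73 strains between in grey and the 20 highest in red. Open red circles are the 5 strains that are among the 20 highest by TPM but not by CPM, and they lie at 0.928 to 5.35 CPM.

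Many erythroid promoters hold short motifs bound by GATA1 or KLF1, and the sequences upstream of genes with contrasting behaviour here are shown for reference. Each is the 250 bases before the RefSeq start on GRCm38.p6, printed 5′ to 3′ along the gene's strand. Capitals mark the GATA motif, searched as AGATAA or as AGATAG and with T as the first letter too, and the CACCC-type motif CCNCNCCC. Both were searched on both strands, and matches of the second that overlap run together. Hba-a1 (chr11:32283422-32283671, plus strand) and Hbb-bs (chr7:103827929-103828178, minus strand) are globin genes that separated the groups in full. Epb42 (chr2:121036878-121037127, minus strand) encodes a membrane protein that separated most strains, and Alas2 (chrX:150547167-150547416, plus strand) encodes a heme enzyme whose levels overlapped.
Hba-a1: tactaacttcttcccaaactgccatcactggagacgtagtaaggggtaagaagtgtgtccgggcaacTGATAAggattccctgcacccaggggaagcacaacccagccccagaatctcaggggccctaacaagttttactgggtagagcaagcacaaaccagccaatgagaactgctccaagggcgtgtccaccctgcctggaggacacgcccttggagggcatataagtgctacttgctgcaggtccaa
Hbb-bs: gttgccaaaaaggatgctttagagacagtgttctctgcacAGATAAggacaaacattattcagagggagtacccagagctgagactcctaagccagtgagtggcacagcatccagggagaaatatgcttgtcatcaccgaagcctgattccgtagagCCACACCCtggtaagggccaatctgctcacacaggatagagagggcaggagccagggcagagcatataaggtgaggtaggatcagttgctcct
Epb42: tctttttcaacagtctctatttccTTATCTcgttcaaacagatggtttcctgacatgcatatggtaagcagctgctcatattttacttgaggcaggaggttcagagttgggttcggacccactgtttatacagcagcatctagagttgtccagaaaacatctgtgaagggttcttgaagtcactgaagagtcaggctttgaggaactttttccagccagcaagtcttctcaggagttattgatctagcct
Alas2: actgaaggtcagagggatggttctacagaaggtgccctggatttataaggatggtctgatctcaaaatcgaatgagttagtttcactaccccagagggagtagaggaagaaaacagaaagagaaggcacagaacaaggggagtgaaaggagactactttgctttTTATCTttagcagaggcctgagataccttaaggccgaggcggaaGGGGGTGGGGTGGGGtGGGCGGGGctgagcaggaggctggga
A GATA motif lay in 6 of the 7 globin promoters in the table and in 24 of 56 promoters of the erythroid lists described next (42.9%; the table has no entry for 20 of the 76 genes, Slc4a1 among them), against 27.1% of 27025 promoters, 1 per gene. A CCNCNCCC match lay in 37 of the 56 (66.1%), against 45.4% of all, but in only 3 of the 7 globin promoters (42.9%). The printed promoters of Hba-a1 and Epb42 hold none. All 4 promoters printed above hold a GATA motif, the one of Alas2 included, although the levels of these 4 genes differed in how far they followed Slc4a1.

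Erythroid genes were described in 5 lists: globins, heme synthesis and iron entry, red cell membrane, reticulocyte maturation, and transcription factors with signalling. Apart from Slc4a1 and Hba-a1 they hold 74 genes found in the table. Because the strains were chosen by an erythroid gene, their levels in the 2 groups are given as a description with no test. In 32 of the 74 the median of the high group lay above every low strain, and in 16 it lay below the low median. Neither count was made over all genes, so no excess is read from them, here or in the single lists. Of the 74, 51 passed the filter on low counts in this comparison. Genes that passed only because the high group is high are among them, so no count over the 51 is used.

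Adult globin transcripts separated the groups without overlap. Hba-a1 ran from 0.619 to 57.3 TPM with a median of 5.97 TPM in the low group, and from 101 to 2330 TPM with a median of 1120 TPM in the high group. Hbb-bs, a beta chain of adult haemoglobin, ran from 0.704 to 33.65 TPM (median 7.11) in the low group and from 93.0 to 2585 TPM (median 840) in the high group. C57BL/6J had the lowest level of both genes in the high group, and BTBR T<+> tf/J had the highest. Hbb-bt, the neighbouring beta gene, also showed no overlap, with at most 17.6 TPM in low strains and at least 33.97 TPM in high strains. Hba-a2 overlapped in 1 high strain. The copies Hba-a1 and Hba-a2, and Hbb-bs and Hbb-bt, are nearly identical, so the split of reads within each pair is uncertain. The embryonic genes Hbb-y, Hba-x and Hbb-bh2 were at 0 in all 40 libraries and Hbb-bh1 was above 0 in 1 of them. Summed over the 8 globin genes in the table, the level was 2.38 to 107.1 TPM in low strains and 286 to 6760 TPM in high strains.

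Membrane and skeleton genes followed the ranking at far lower levels than globins. Kel, the Kell blood group protein, was at 0 in all 20 low strains and above 0 in 19 high strains, with a median of 0.809 TPM and a highest value of 16.2 TPM. Ank1, the ankyrin that anchors the membrane to its skeleton, had medians of 0.0878 TPM in low and 1.18 TPM in high strains. Epb42, protein 4.2, which links band 3 to ankyrin, ran from 0 to 0.280 TPM in low strains and from 0.0680 to 7.68 TPM in high strains, with 16 of 20 above every low strain. Rhag, the Rh-associated glycoprotein, was at 0.122 to 18.2 TPM in high strains against at most 0.238 TPM in low strains, and the 4 leading strains held 2.901 to 18.2 TPM of it and the other 16 at most 5.71 TPM. In 13 of the 20 genes of this list other than Slc4a1 the high median exceeded all low strains, a count not made over all genes. Some genes of the list overlapped throughout: Aqp1, a water channel, had medians of 34.2 TPM in low and 35.2 TPM in high strains, and Epb41 78.0 and 83.8 TPM.

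Genes of late red cell maturation were higher in part. Bpgm makes 2,3-bisphosphoglycerate, which lowers the oxygen affinity of haemoglobin. It ran from 3.21 to 11.04 TPM (median 5.665) in low strains and from 5.01 to 21.3 TPM (median 11.3) in high strains, so the groups overlapped while 18 of 20 high strains lay above the low median. Car1, the carbonic anhydrase abundant in red cells, had a median of 1.865 TPM in low strains and 14.6 TPM in high strains. Its high group ran from 0.512 TPM in C57BL/6J to 158 TPM in BTBR T<+> tf/J. Tmcc2 had medians of 1.19 and 5.17 TPM. Cat, the catalase gene, which hepatocytes express strongly, went the other way, with medians of 900 TPM in low and 660 TPM in high strains.

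Among regulators, Gata1, the master transcription factor of the erythroid line, was at 0 in 14 low strains and in 1 high strain. Its high group had a median of 0.913 TPM and the 4 leading strains held 3.52 to 8.41 TPM. Tal1, its partner in erythroid enhancers, had medians of 0.515 and 1.82 TPM, and Myb, a factor of early progenitors, 0.163 and 1.06 TPM. Gfi1b, a repressor needed for erythroid and platelet lineages, was at 0 in 18 low strains and had a median of 0.994 TPM in high strains. Epor, the erythropoietin receptor, had medians of 1.32 and 2.01 TPM. Kit, the receptor of early progenitors, was at 2.15 TPM in low and 1.95 TPM in high strains. Klf1, another erythroid factor, was at 3.45 and 3.97 TPM. Erfe, the hormone erythroferrone that erythroblasts release to suppress hepcidin, reached at most 0.292 TPM in low strains and 5.15 TPM in high strains, with a high median of 0.351 TPM.

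Genes of heme synthesis mostly did not separate the groups. The liver itself also makes heme, for its cytochromes P450. Alas2, the erythroid form of the first and rate-limiting enzyme, ran from 0.985 to 36.02 TPM (median 5.20) in low strains and from 3.78 to 43.3 TPM (median 19.1) in high strains. Of the 20 high strains 3 lay above every low strain, and BXD70/RwwJ, with 1 Slc4a1 count, had 36.02 TPM. Tfrc, the transferrin receptor through which erythroblasts take up iron, had medians of 5.99 and 13.25 TPM, again with wide overlap. Of the 14 genes 10 had a lower median in the high group, among them Alad, the second enzyme of the pathway, with 137 TPM in low and 73.8 TPM in high strains. Slc25a37, the mitochondrial iron importer mitoferrin-1, was at 8.93 and 9.87 TPM, and Fech, the enzyme that inserts iron into heme, at 64.9 and 58.5 TPM.

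**Figure D2:**
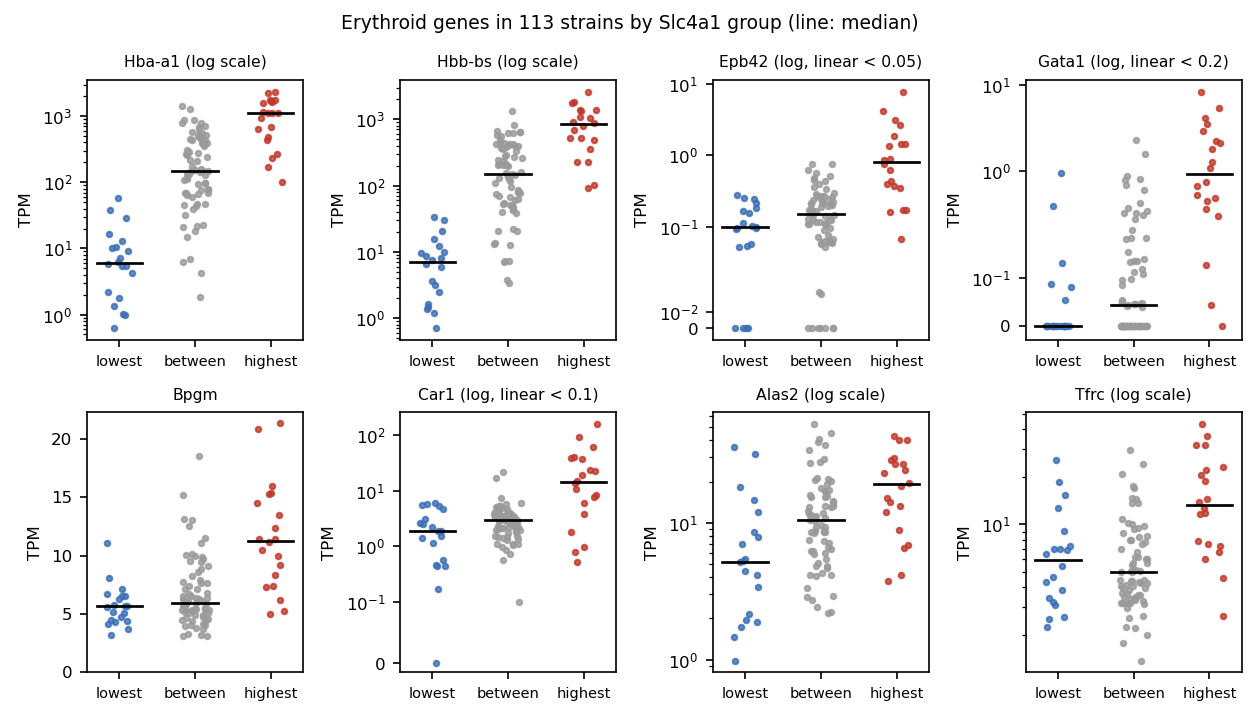
Levels in TPM of 8 erythroid genes in the 20 lowest (blue), 73 intermediate (grey) and 20 highest (red) strains by Slc4a1; each point is 1 strain, black lines are medians, and axes are logarithmic where the panel title says so. Hba-a1 and Hbb-bs do not overlap between the outer groups, Epb42 is at most 0.280 TPM and Gata1 at 0 in 14 of the lowest strains, and Alas2 and Tfrc overlap widely.

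The 73 strains between the groups gave a fit in libraries that neither group used, but on Slc4a1, the gene of the ranking. A rise of other erythroid genes with it was likely beforehand. Their slopes therefore describe how closely each followed Slc4a1 and are no independent support. The slope of each gene on log2(TPM + 1) of Slc4a1 was fitted with edgeR's quasi-likelihood test, and 74 of 14060 genes passed an adjusted p of 0.05 (0.526%), of which 63 rose with Slc4a1 (0.448%) and 11 fell (0.0782%). The 3 adult globin genes that the ranking did not use rose. Hbb-bs had a slope of 1.40 ± 0.24 (SE, log2 change per log2 unit of Slc4a1, n = 73 strains, edgeR adjusted p = 0.000176). Hba-a1, which ordered ties in the ranking, had a slope of 1.37 ± 0.24, given with no test. Of the 10 membrane genes tested other than Slc4a1, 3 rose, among them Ank1 with 1.33 ± 0.15 and Ermap, an erythroid surface protein, with 0.35 ± 0.09. Of 17 maturation genes 6 rose, among them Bpgm, Car1, Ube2o, Mkrn1 and Tmcc2. Bpgm rose by 0.37 ± 0.06 (edgeR adjusted p = 0.000102). Of 10 regulators, Myb (0.78 ± 0.17) and Bcl11a (0.78 ± 0.15), a factor that silences embryonic globin genes, rose. None of the 14 heme and iron genes passed, with an edgeR adjusted p = 0.586 for Alas2 at a slope of 0.25 ± 0.19 and 0.475 for Tfrc at 0.23 ± 0.14. The median slope of the 14 was -0.06, against -0.0005 over all genes tested.

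The counts there moved with the unit of Slc4a1. With the slope taken on log2(CPM + 1) of Slc4a1, chosen after the TPM outliers were seen, 368 of 14335 genes passed (2.57%), 228 upward (1.59%) and 140 downward (0.977%). The 3 other globins and the genes Ank1, Ermap, Bpgm, Car1, Ube2o, Mkrn1, Tmcc2, Myb and Bcl11a passed again, and Sptb, Ypel4, Isg20, Hemgn, Tal1 and Lyl1 joined them. Abcb6 and Urod of the heme list passed downward. With 1 of the 10 leading intermediate strains left out in turn, the TPM slopes of Ermap, Car1, Ube2o, Tmcc2 and Myb each lost the call at least once, while the 3 other globins, Ank1, Bpgm, Mkrn1 and Bcl11a were called every time. In the CPM fit Alas2 still missed, at 0.23 with an edgeR adjusted p = 0.278.

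Across the whole transcriptome, the 20 highest and 20 lowest strains differed at 2604 of 13210 genes tested (19.7%) in the edgeR quasi-likelihood fit, of which 1374 were higher (10.4%) and 1230 lower (9.31%) in the high group. P-values measure the spread between strains, each of 1 mouse. The 4 leading strains carried much of this count: without them it was 653 of 13216 genes (4.94%), with 353 higher (2.67%) and 300 lower (2.27%). Leaving out the 5 strains that are high by TPM alone moved it the other way, to 4104, and ranking by CPM gave 3592 of 13265 (27.1%), 13.8% higher and 13.3% lower. A term for strain family gave 2001 genes (15.1%), 1020 higher (7.72%) and 981 lower (7.43%), while the 9 against 9 BXD strains alone gave 69 of 13083 (0.527%), 62 higher (0.474%) and 7 lower (0.0535%). Outside the erythroid lists, of the genes called higher, 1206 of 1341 with a value (89.9%) had a positive slope in the 73 intermediate strains, against 90 of 1224 called lower (7.35%) and 49.4% of the 10588 not called.

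Some genes of dividing cells, neutrophils and platelets were higher in the high group, against a background of 10.4% of all genes called higher. Many of these genes pass the filter on low counts only with the high strains in the fit. Counts below are therefore over genes that pass it in the 20 low strains alone, a restriction added after the data were seen. Log2 changes and p-values of single genes outside this restriction only describe these libraries. The 10.4% was taken over all 13210 genes tested, with no such restriction, so it is not a like background for these counts. In the cell cycle list 15 of 16 genes were tested, 6 of them pass in the low strains alone, and 3 of these 6 were higher and none lower. Mki67, a marker of dividing cells, ran from 0.133 to 1.27 TPM (median 0.466) in low strains and from 0.443 to 21.2 TPM (median 1.96) in high strains, a log2 change of 2.70 ± 0.40 (SE, edgeR adjusted p = 2.88e-05). It lay above every low strain in 17 of 20 high strains, and the 3 exceptions, RIIIS/J, C57BL/6J and AXB19a/PgnJ, were among the 5 placed by TPM alone. Top2a, a DNA topoisomerase of dividing cells, was higher by 1.84 ± 0.33 and the mitotic cyclin gene Ccnb1 by 2.14 ± 0.40. Ccnb1, unlike Mki67 and Top2a, does not pass the filter in the low strains alone. Without the 4 leading strains Mki67 was higher by 1.63 (edgeR adjusted p = 0.000928), and within the BXD strains it was called too (edgeR adjusted p = 0.0126). In the 73 intermediate strains 1 of 15 genes rose with Slc4a1 in TPM. It was Mki67, with a slope of 0.56 ± 0.14 (edgeR adjusted p = 0.033). That call was lost in 4 of the 10 fits that left out 1 leading intermediate strain.

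In the neutrophil list 10 of 14 genes were tested, 3 of them pass in the low strains alone, and all 3 were higher. The genes named next other than Lcn2 do not pass there. S100a8, an abundant neutrophil calcium-binding protein, ran from 0.276 to 90.1 TPM (median 1.63) in low strains and from 1.66 to 130.5 TPM (median 38.97) in high strains, a log2 change of 2.36 ± 0.62 (edgeR adjusted p = 0.00778). The groups overlapped widely, since 10 of 20 low strains lay above the lowest high strain, RIIIS/J, and BXD16/TyJ at 90.1 TPM and BXA2/PgnJ at 53.7 TPM lay above the high median. Granule genes of neutrophil precursors were also higher, Mpo by 2.95 ± 0.68 and Prtn3 by 2.905 ± 0.61. Lcn2, which hepatocytes also make in the acute phase response, was higher by 2.54 ± 0.50. Lcn2 alone, at 10.03 to 551 TPM in low and 10.1 to 2178 TPM in high strains, made up most of the summed level of the list. The 13 other genes summed to 2.98 to 326.1 TPM (median 8.25) in low strains and 11.1 to 378.1 TPM (median 162) in high strains. Without the 4 leading strains S100a8 was called at 2.20 (edgeR adjusted p = 0.0465), in a fit that reuses libraries of the 2 groups. Within the BXD strains 0 of 9 were called by edgeR, where the smallest of the adjusted p-values of the genes named here was 0.143, for Prtn3. In the 73 intermediate strains 6 of 11 rose with Slc4a1 in TPM (S100a8, S100a9, Retnlg, Ltf, Mpo and Mmp9), and 13 of 13 in CPM.

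In the platelet and megakaryocyte list 7 of 12 genes were tested, 2 of them pass in the low strains alone, and both were higher. Pf4, Ppbp and Tubb1 do not pass there. Pf4, platelet factor 4, ran from 0.211 to 6.46 TPM (median 1.75) in low strains and from 0.672 to 41.3 TPM (median 10.2) in high strains, a log2 change of 2.57 ± 0.39 (edgeR adjusted p = 3.52e-05). In 16 of 20 high strains it exceeded every low strain, and I/LnJ at 0.672 TPM was the lowest. Ppbp, another platelet chemokine, was higher by 3.47 ± 0.59 and Tubb1, the platelet tubulin, by 2.99 ± 0.52. Pf4 was called without the 4 leading strains, at 2.06 (edgeR adjusted p = 0.00132), and within the BXD strains (edgeR adjusted p = 0.00177). Both fits reuse libraries of the 2 groups, so they are no separate support. In the 73 intermediate strains none of 7 passed, and Pf4 had a slope of 0.20 ± 0.23. The summed level of the 12 genes was 7.74 to 52.4 TPM in low and 19.5 to 149 TPM in high strains. Whether these lists, the cell cycle genes and the erythroid genes come from the same or different cells, and what part they have in the other differences, was not tested.

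Of the lists of other blood and sinusoidal cells, only those of macrophages held calls. Neither of the 2 lymphocyte genes that could be tested, Cd3d and Cd4, passed, and the list summed to 2.85 to 11.5 TPM in low and 2.23 to 28.7 TPM in high strains. Of 17 macrophage and Kupffer cell genes 2 were higher (11.8%, against 10.4% of all genes), Marco, a scavenger receptor, by 1.70 ± 0.36 (edgeR adjusted p = 0.0017) and Vsig4, a complement receptor of Kupffer cells, by 0.46 ± 0.16 (edgeR adjusted p = 0.0345). Without the 4 leading strains Marco was called and Vsig4 was not. Clec4f, restricted to Kupffer cells, had medians of 83.95 TPM in low and 77.99 TPM in high strains. None of 11 endothelial and stellate genes passed. Of 9 niche and cytokine genes 2 were higher (22.2%), Csf1, the macrophage growth factor, by 0.39 ± 0.14 and Tgfb1 by 0.45 ± 0.14, and neither was called without the 4 leading strains.

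**Figure D3:**
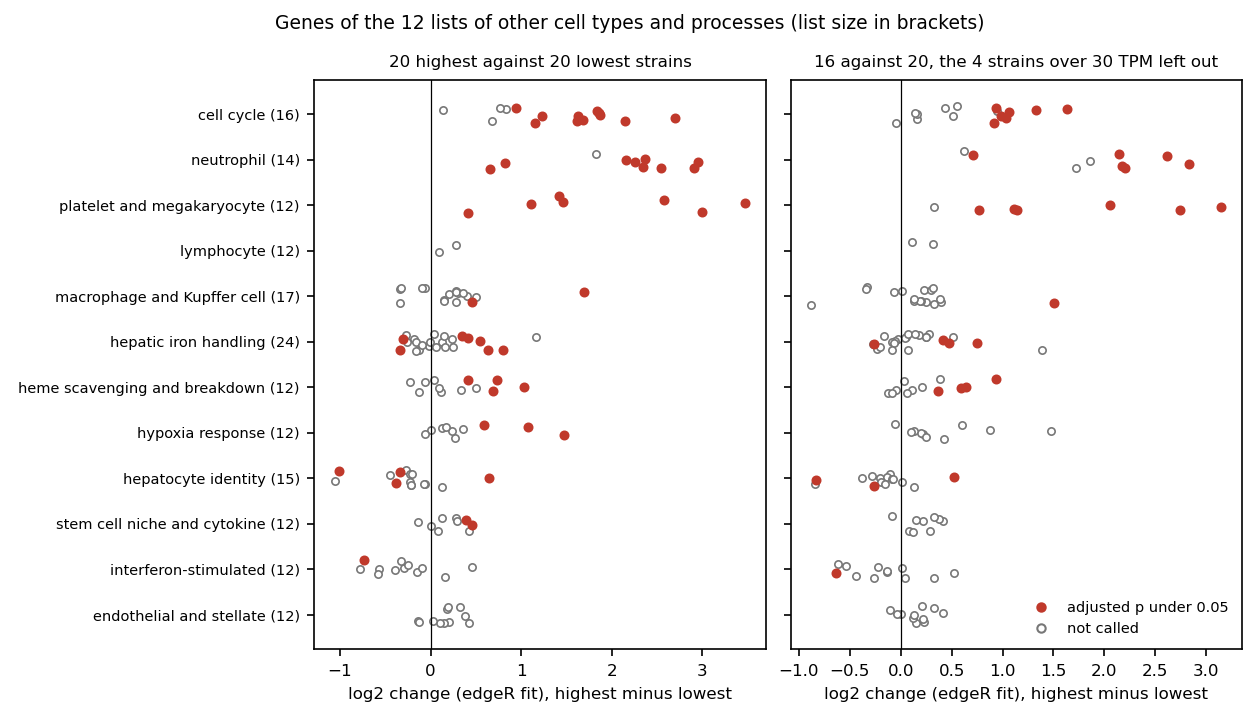
Log2 change between the highest and lowest Slc4a1 strains (x axis, edgeR) for each tested gene of 12 lists (y axis, list size in brackets), for 20 against 20 strains on the left and with the 4 strains over 30 TPM left out on the right. Filled red points passed an adjusted p of 0.05 and open points did not; cell cycle, neutrophil and platelet genes lie mostly to the right in both panels, many of them genes that pass the count filter only with the high strains, and the 3 hypoxia genes called on the left are open on the right.

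Of 24 hepatic iron genes, 5 were higher (20.8%, against 10.4% of all genes) and 2 lower (8.3%, against 9.31%). Trf, the plasma iron carrier transferrin, ran from 7997 to 28040 TPM (median 12510) in low strains and from 13850 to 38550 TPM (median 25640) in high strains, a log2 change of 0.80 ± 0.14 (edgeR adjusted p = 0.000152). All 20 high strains lay above the low median, and the lowest 3 were BXD75/RwwJ, AXB19a/PgnJ and C57BL/6J. Cp, the ferroxidase ceruloplasmin, was higher by 0.54 ± 0.11, the iron importers Slc11a2 and Slc39a14 by 0.63 ± 0.17 and 0.41 ± 0.10, and the ferritin heavy chain gene Fth1 by 0.34 ± 0.11. Ireb2, the iron regulatory protein 2, was lower, with a log2 change of -0.34 ± 0.08 (edgeR adjusted p = 0.00505), and Tmprss6, a protease that restrains hepcidin, with -0.30 ± 0.10. Hamp itself, the gene of the iron hormone hepcidin, ran from 3368 to 6348 TPM (median 4561) in low strains and from 1567 to 5657 TPM (median 4121) in high strains, and it was not called, at -0.27 ± 0.12 (edgeR adjusted p = 0.113). Bmp6, Id1 and Smad7, the ligand and targets of the pathway that drives hepcidin, also did not pass. Without the 4 leading strains Trf, Cp, Slc39a14 and Ireb2 were called, and Slc11a2, Fth1 and Tmprss6 were not. Within the BXD strains none of the 24 passed, with an edgeR adjusted p = 0.0871 for Trf.

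Of 12 genes of heme scavenging and breakdown 4 were higher (33.3%, against 10.4% of all genes) and none lower. Hpx, which binds free heme in plasma, was higher by 0.69 ± 0.12 (edgeR adjusted p = 0.000332) and Hp, which binds free haemoglobin, by 0.73 ± 0.18. Hmox1, the enzyme that opens the heme ring, ran from 9.91 to 135 TPM (median 28.2) in low strains and from 32.03 to 157 TPM (median 69.04) in high strains, a log2 change of 1.04 ± 0.26 (edgeR adjusted p = 0.00565). All 20 high strains were above the low median, while 9 of 20 low strains lay above the lowest high strain, AXB19a/PgnJ, with BXD87/RwwJ the highest of them at 135 TPM. Slc48a1, a heme transporter, was higher by 0.41 ± 0.09. All 4 were called without the 4 leading strains. Of 10 hypoxia genes 3 were higher, against 10.4% of all genes: Adm by 1.08 ± 0.28, Ankrd37 by 1.47 ± 0.52 and Bnip3 by 0.59 ± 0.21. Adm and Ankrd37 pass the count filter only with the high strains. Among the 8 hypoxia genes that pass it in the low strains alone, only 1, Bnip3, was higher, so no excess is read from this list. None of the 3 was called without the 4 leading strains. Epo, the hormone that drives red cell formation, did not pass the count filter and was not tested here. It had a median of 0 TPM in low strains, with a highest value of 9.71 TPM, and a median of 1.97 TPM in high strains, where 19 of 20 were above 0.

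Of 15 hepatocyte genes 1 was higher (6.7%, against 10.4% of all genes) and 3 were lower (20.0%, against 9.31%). Alb had medians of 46820 TPM in low and 46880 TPM in high strains. The 3 lower genes were Cyp2e1, a pericentral cytochrome P450, by a log2 change of -1.01 ± 0.22 (edgeR adjusted p = 0.00192), Ttr by -0.38 ± 0.11 and Apoe by -0.34 ± 0.08, while the fibrinogen gene Fgb was higher by 0.64 ± 0.16. Cyp2e1 ran from 1640 to 5434 TPM (median 3433) in low strains and from 320 to 3990 TPM (median 1803) in high strains, and 18 of 20 high strains lay below the low median. Of 12 interferon-stimulated genes 1 was lower (8.3%, against 9.31% of all genes), Bst2, at -0.73 ± 0.17. Ranked by CPM, 5 of these 12 were lower, where 13.3% of all genes were, so the count of this list depends on the unit.

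The largest rises outside the lists, by the naming rule, were E2f2, Cd24a, Chil3, Cxcl14, Thbs1, Prkar2b, Atp1b2, Cdr2, Acss1 and Fcho1. The rule picks called genes by size of change and by strains beyond the other group's median. Their p-values and such strain counts in this comparison therefore restate the choice. Whether these genes pass the count filter in the low strains alone was not checked. E2f2, a cell cycle transcription factor needed in erythroid maturation, was higher by 3.51 ± 0.42 (edgeR adjusted p = 4.37e-07). Cd24a, a surface glycoprotein of immature blood cells, ran from 0.659 to 2.77 TPM (median 1.53) in low strains and from 0.965 to 95.2 TPM (median 8.39) in high strains, a log2 change of 3.42 ± 0.45. Chil3, a product of neutrophil precursors and macrophages, was higher by 2.96 ± 0.79, and Thbs1, thrombospondin 1, which platelet granules hold, by 2.79 ± 0.42. Cdr2 was higher by 2.72 ± 0.28, with all 20 high strains above the low median. Among these, E2f2, Cd24a, Cdr2 and Atp1b2 also rose with Slc4a1 in the 73 intermediate strains, Cd24a by 0.74 ± 0.10 (edgeR adjusted p = 7.78e-07), whereas Cxcl14 had a slope of -0.01 ± 0.31 there. E2f2, Cd24a, Thbs1, Prkar2b, Atp1b2 and Cdr2 were called within the BXD strains as well.

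The largest falls, picked by the same rule and with the same limits, were Mup7, Mup11, Mup9, Mup20, Mup14, Car3, Elovl3, Mup2, Cyp2a22 and Serpina6. Of the 10, 6 are major urinary proteins, pheromone carriers that male mouse liver makes in large amounts; they are close copies of each other, so reads may be split between them. Mup7 ran from 0 to 1788 TPM (median 2.85) in low strains and from 0 to 111 TPM (median 0.807) in high strains, a log2 change of -4.56 ± 1.18 (edgeR adjusted p = 0.00751). Its medians lie closer than the fitted change, because a few low strains, BXH14/TyJ at 1788 TPM and BXD70/RwwJ at 1388 TPM, hold most of the signal. Mup20 likewise reached 11930 TPM in a low strain and 751 TPM in a high strain. Serpina6, the plasma carrier of corticosteroids, was more evenly lower, at 31.9 to 493 TPM (median 153) in low and 0.293 to 176 TPM (median 34.8) in high strains, with a log2 change of -2.03 ± 0.49 (edgeR adjusted p = 0.0048). Car3, a carbonic anhydrase of liver and muscle, was lower by a log2 change of -2.62 ± 0.69. Without the 4 leading strains Mup7, Mup11, Car3 and Serpina6 were called, and the other 6 were not. The call of 3 of them also rested on 1 low strain: without BXH14/TyJ, Mup20 was at -1.33 (edgeR adjusted p = 0.223), Mup14 at -1.79 and Elovl3 at -1.73, and without BXA26/PgnJ Mup9 was at -2.02, none of them called. Among genes chosen after their values were seen, the acute phase genes Saa1 (2.08 ± 0.54), Saa2 (2.23 ± 0.64) and Orm2 (2.48 ± 0.51) were higher, and Cyp1a2, a P450 of caffeine metabolism, was lower (-1.84 ± 0.47). Cyp1a2 also fell in the 73 intermediate strains, with a slope of -0.69 ± 0.17 (edgeR adjusted p = 0.0311), a call lost without NON/ShiLtJ or BXD60/RwwJ.

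**Figure D4:**
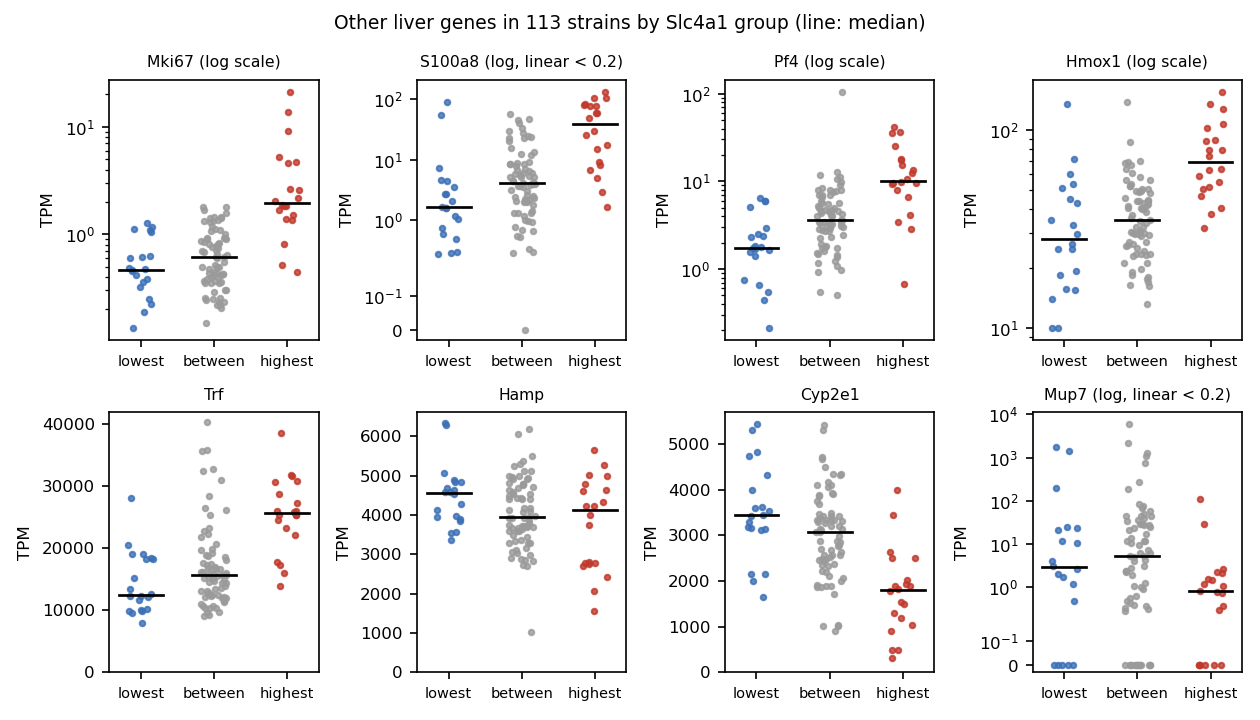
Levels in TPM of 8 genes outside the erythroid lists in the 20 lowest (blue), 73 intermediate (grey) and 20 highest (red) strains by Slc4a1; each point is 1 strain, black lines are medians, and axes are logarithmic where the panel title says so. Mki67, S100a8, Pf4, Hmox1 and Trf sit higher and Cyp2e1 lower in the highest strains, Hamp overlaps, and Mup7 spans from 0 to 1788 TPM in the lowest strains.

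Ranking the same strains by Alas2 gave another contrast. Of the 20 highest strains by Slc4a1, 9 were also among the 20 highest by Alas2, 9 lay between and 2 were among the 20 lowest by Alas2. Of 20 low strains 8 stayed low and 2, BXD70/RwwJ and BXH14/TyJ, were among the 20 highest by Alas2. This ranking called 405 genes. The log2 change of Mup7 was 8.08 by Alas2 (edgeR adjusted p = 0.000281) and -4.56 by Slc4a1, that of Mup20 5.48 and -3.44, and that of Elovl3 3.10 and -2.28. Both rankings share strains, and the difference between them was not tested.

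The diet experiment showed the level that C57BL/6J livers reach with and without iron loading, in 3 mice per diet and in separately made tables. On chow or 50 ppm iron, Slc4a1 had 0 to 4 counts and Hba-a1 5.63 to 40.6 TPM in 6 mice. On 2% iron, alone or with cellulose as fibre, Slc4a1 had 13 to 123 counts and Hba-a1 119 to 377 TPM in 6 mice, so counts of Slc4a1 and levels of Hba-a1 did not overlap. In TPM, the unit of the ranking, Slc4a1 did overlap, with 0.609 TPM in a 50 ppm mouse and 0.577 TPM in the lowest mouse on 2% iron. On 500 ppm iron 2 mice had 0 counts of Slc4a1, and the third had 30 counts and 111 TPM of Hba-a1. The panel's C57BL/6J mouse had 13 counts of Slc4a1 and 101 TPM of Hba-a1, at or below the lowest of the 6 on 2% iron. Its 4.17 TPM of Slc4a1 still placed it in the high group. Alas2 ran the opposite way to the globins, at 26.3 to 53.5 TPM on chow or 50 ppm and 5.78 to 21.98 TPM on 2% iron. Mup7 was at 1060 to 12430 TPM on chow or 50 ppm and at 1.72 to 23.2 TPM on 2% iron. Mean TPM was also compared between the 3 mice on 2% iron without cellulose and the 3 on 50 ppm. Of the genes called higher between the strain groups, outside the erythroid lists, 1147 of 1344 with a value (85.3%) were higher on 2% iron. The share was 239 of 1221 for genes called lower (19.6%) and 59.7% for those not called.

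**Figure D5:**
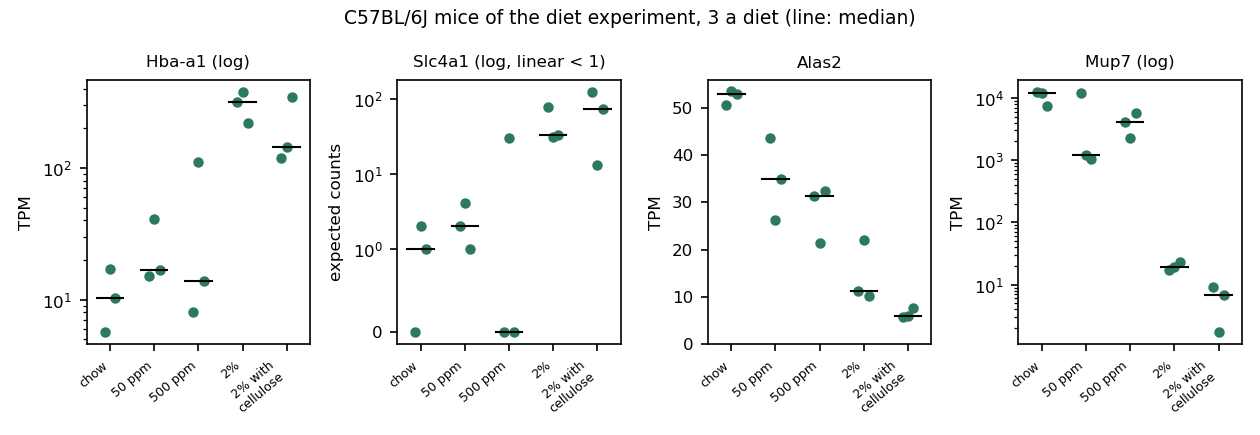
Hba-a1, Alas2 and Mup7 in TPM and Slc4a1 in expected counts (y axes, logarithmic where the panel title says so) in C57BL/6J mice on 5 diets (x axis); each point is 1 mouse, 3 per diet, and black lines are medians. Hba-a1 and Slc4a1 are higher and Alas2 and Mup7 lower in the 6 mice on 2% iron than in the 6 on chow or 50 ppm. The 500 ppm point with the most Slc4a1 counts is the library that nearly matched BXD19/TyJ of the panel.

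In the panel 1 strain was measured in a second mouse. The 2 mice of 129X1/SvJ had 0.574 and 0.0466 TPM of Slc4a1 and 391.8 and 13.7 TPM of Hba-a1, on the same diet. By Slc4a1 both lie between the groups, while the first mouse's Hba-a1 lies in the range of the high group and the second's in that of the low group. Mup7 was 29.5 TPM in the first mouse and 1192 TPM in the second, and Alas2 15.4 and 28.5 TPM. With 1 mouse in every other panel strain, differences between strains and between mice cannot be told apart here.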

How the data were processed

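Liver mRNA was sequenced in 130 mice, all male by their labels, with a stranded mRNA kit per the labels' protocols. The submitters' processing notes name kallisto 0.46 and the build mm10; how transcripts were summed to genes is not given in the sources used here. The authors deposited TPM and estimated counts per gene (expected counts, rounded to whole numbers before the count tests). Ensembl identifiers were named with GENCODE M21, which matched 35612 of 35711. Promoters came from RefSeq (GRCm38.p6), matched by symbol, without chromosome 18. Genes were tested with edgeR 4.0.16 (TMM, filterByExpr, glmQLFTest, two-sided, Benjamini-Hochberg over all genes, called at 0.05) in R 4.3.3, checked on simulated counts, with standard errors taken as the log2 change over the root of the F statistic. Total counts were 9.41 to 20.6 M (1000000 counts) per panel library. Named genes were the lists plus the 10 largest rises and 10 largest falls among called genes on no list, of at least 1 CPM, with at least 16 of 20 strains of one group beyond the other's median. Members and gene lists were chosen with earlier results of these data known. Alternatives were RLE factors, other filters, DESeq2 1.42.0, limma 3.58.1 on log2(TPM + 1) and log2(TPM + 0.1), family terms, other group sizes and rankings, and libraries left out. Some genes of the lists are not reported here.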

Additional observations from a re-analysis of the deposited data

Results flagged for a closer look

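The diet experiment in C57BL/6J mice was outside the comparison of strains, and cell type markers there lay above every mouse on chow or 50 ppm iron. S100a8, the neutrophil marker, was at 2.007 TPM in the lowest of the 6 mice on 2% iron, against at most 1.939 TPM in the 6 mice on chow or 50 ppm iron; the median on 2% iron was 4.81 TPM and the highest value 45.9 TPM. Pf4, the platelet marker, was at 2.484 TPM in the lowest of the 6 mice on 2% iron, against at most 0.934 TPM on chow or 50 ppm, with a median of 5.90 TPM and a highest value of 15.1 TPM. Ppbp, Mki67 and Mpo also lay above all 6 of those mice in all 6 mice on 2% iron. Of the 3 libraries labelled 500 ppm iron, 1 had 4.79 TPM of S100a8 and 6.84 TPM of Pf4, within the range on 2% iron. It is the library that nearly matched BXD19/TyJ of the panel, which had 4.50 TPM of S100a8 and 6.92 TPM of Pf4. Its values are therefore not read as a level on 500 ppm iron. The difference between 2% iron and chow or 50 ppm was not tested.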

How the results depend on the processing

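The comparison of the groups called 2604 genes in all, where limma on log2(TPM + 1) called 1267 and on log2(TPM + 0.1) 1274, the BXD strains alone 69, and a ranking by Alas2 405. A slope over all ranked strains called 7025. Sets left out after seeing the data gave 653 (without the 4 leading strains) and 4104 (without the 5 strains high by TPM only). Leaving out 1 strain at a time gave 1970 (without BTBR T<+> tf/J) to 3028 (without BXD75/RwwJ). The slope in the 73 intermediate strains called 74 genes in all, where no filter on low counts gave 265, a filter of 10 counts 33, DESeq2 124, limma 35 and 33, the BXD strains alone 25, and the slope on CPM, added after seeing the data, 368. Leaving out 1 of the 10 strains with the most Slc4a1 among them gave 41 (without NON/ShiLtJ) to 140 (without BXA16/PgnJ). Ranked by Alas2, the log2 change reversed for 18 of 59 named genes: Clec1b -0.0536, Trf -0.0115, Fth1 -0.0308, Bnip3 -0.46 and Tgfb1 -0.0885, and Tmprss6 0.0743, Ireb2 0.0868, Ttr 0.0097, Bst2 0.17, Mup7 8.08, Mup11 6.32, Mup9 0.64, Mup20 5.48, Mup14 4.37, Car3 1.84, Elovl3 3.10, Mup2 1.66 and Serpina6 0.0716. The cause was not tested. With 1 library left out, 12 named genes lost the call between the groups (Ngp, Clec1b, Vsig4, Fth1, Tmprss6, Ankrd37, Bnip3, Csf1, Mup9, Mup20, Mup14 and Elovl3) and 10 the slope's (Ermap, Car1, Ube2o, Tmcc2, Myb, Mki67, Ltf, Mpo, Atp1b2 and Cyp1a2). No named gene reversed under any other alternative run. Slc4a1 counts of 0 or 1 in the low group leave its order within that group unresolved at this depth. No paired analysis was possible because each strain is 1 mouse and replicate numbers only name samples.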
